A study of Mus musculus with 6 samples.

Results

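The HoxC genes examined here were Hoxc4, Hoxc5, Hoxc6, Hoxc8, Hoxc9, Hoxc10 and Hoxc13, 7 of the 18193 genes that the platform annotation ties to a probe set naming a single gene. They were chosen by symbol, with every probe set that names only the one gene, which gave 11 of the 45101 probe sets on the array. Hoxc5 and Hoxc6 had 3 probe sets each, and the other 5 genes had 1. Hoxc11 and Hoxc12, which lie between Hoxc10 and Hoxc13 in the RefSeq gene order, were not analysed here. The rule itself uses no measured value.

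Hox genes encode homeodomain transcription factors that give cells their position along the body axis. They sit in 4 clusters, A to D, and a gene's place in its cluster follows its paralog group: low-numbered groups lie toward the 3-prime end and act in anterior regions, and high-numbered groups lie toward the 5-prime end and act in posterior regions. Polycomb repressive complex 2 (PRC2), whose catalytic subunit is either Ezh1 or Ezh2, methylates lysine 27 of histone H3 and holds Hox genes silent in cells outside their domain. Hoxc13 has a second role in skin: in mouse it is required for the hair shaft, where it acts on hair keratin genes.

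RNA was profiled on 6 Affymetrix mouse arrays, with 1 array for each combination of 2 genotypes and 3 cell populations sorted by FACS from skin at 14 days of age, all on a mixed C57B6 and CD1 background. The groups labelled Ezh1/2 2KO (loss of both Ezh1 and Ezh2) were basal epidermal cells, matrix cells and ORS cells, and the groups labelled Ezh1/2 WT were the same 3 populations. Basal epidermis is the dividing layer of the epidermis, the matrix is the dividing part of the hair bulb that makes the shaft and inner sheath, and the outer root sheath (ORS) is the outer layer of the follicle. The 2KO basal epidermis was labelled as female and the other 5 samples as female and male, so sex and genotype are partly mixed in the epidermal pair. The labels do not give the alleles, the cells in which the genes were deleted, the body region, or the number of mice behind each sample.

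The values are MAS5 signals, linear intensities of a probe set on an array, and the signals of 2 different probe sets cannot be set against each other. A floor of 83.2 signal units, the median of all probe sets other than controls over the 6 arrays, was taken as the level below which a signal has only an upper bound, and it was reached by 47.8% to 53.1% of the probe sets, depending on the array. A ratio with 1 side below the floor is a lower bound and is written as at least N-fold. A gene with both signals below it was counted as not measured in that pair. A gene was called higher or lower at a difference of 2-fold, the rule of the series text. Because each group is a single array, the spread between replicates within a group is unknown, and the comparisons within a population or within a genotype carry no p-value. The 1 test run took the 3 populations together.

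The array pairs carried the labelled genotype, least clearly in matrix. Ezh2 had a signal of 432 in 2KO basal epidermis against 2563 in WT basal epidermis, 1725 in 2KO matrix against 3578 in WT matrix, and 378 in 2KO ORS against 2151 in WT ORS. These are 5.93-fold, 2.07-fold and 5.69-fold lower signals. Ezh1, by its brightest probe set, was lower in 2KO by at least 4.82-fold, by 3.54-fold and by at least 4.57-fold in the same populations. The other Ezh1 probe sets were below the floor on every array, apart from a signal of 89.7 in WT matrix. Whether these probes lie in the deleted exons is not known here. The matrix and basal epidermis arrays also carried markers of their populations. The summed signal of 8 matrix, sheath and shaft genes was 41814 in 2KO matrix and 53917 in WT matrix, against 944 to 3195 on the other 4 arrays. The summed signal of 4 interfollicular epidermis genes was 74592 in 2KO and 69143 in WT basal epidermis, against 3549 to 12223 on the other 4 arrays. Among them, Krt77 was 67.8-fold lower in 2KO basal epidermis. The summed signal of 8 ORS and stem cell genes did not single out ORS. It was 49034 in 2KO matrix, close to the 42459 of 2KO ORS and the 53173 of WT ORS, against 10992 in WT matrix. In basal epidermis it was 27449 in 2KO and 32250 in WT.

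The HoxC genes did not differ between genotypes in one way. Hoxc9 and Hoxc10 were below the floor on all 3 WT arrays and above it on all 3 2KO arrays. On the anterior side, Hoxc4 was at least 2-fold lower in 2KO basal epidermis and Hoxc5 in 2KO basal epidermis and 2KO ORS. Hoxc6, Hoxc8 and Hoxc13 were within 2-fold between genotypes in all 3 populations. The plot of signals by array shows these values.

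**Figure D1:**
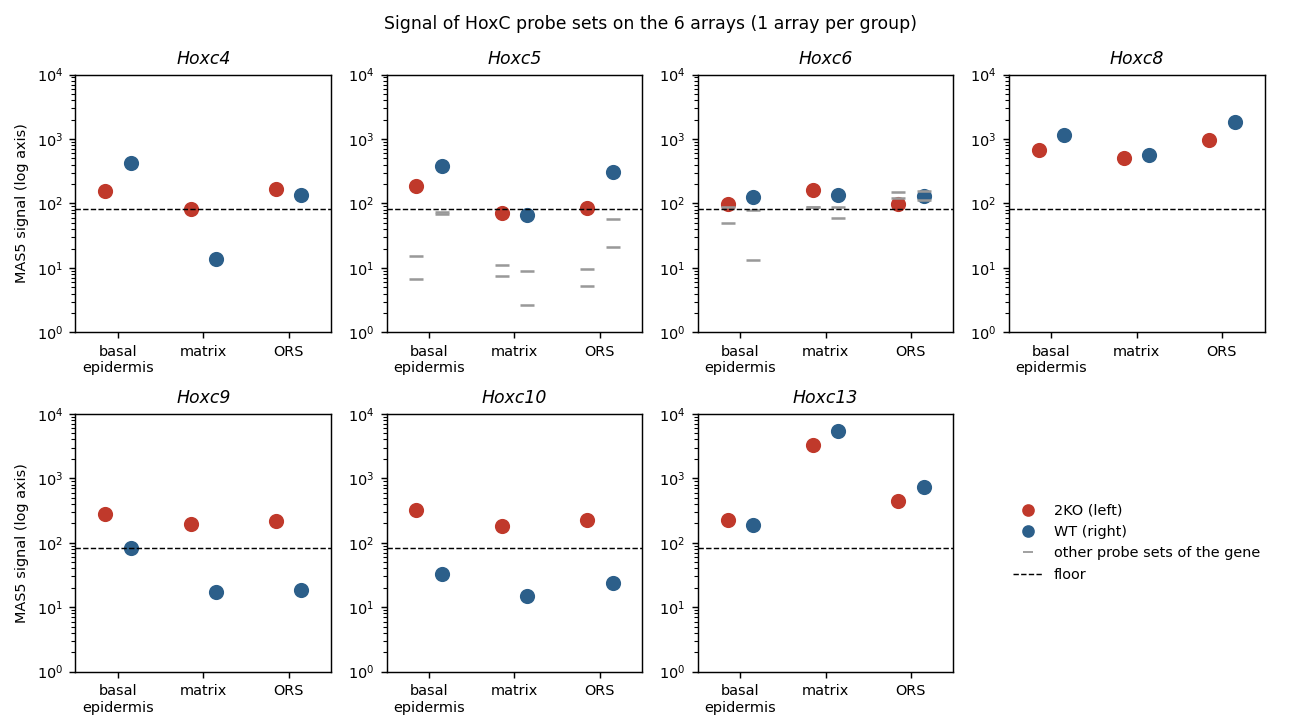
MAS5 signal (log axis) of the HoxC probe sets on the 6 arrays, with cell populations along each x axis, 2KO in red on the left and WT in blue on the right, and the dashed line at the floor of 83.2. Each large point is the 1 array of a group for the brightest probe set of the gene, and grey bars are the other probe sets of Hoxc5 and Hoxc6. Hoxc9 and Hoxc10 lie above the floor on the 3 2KO arrays and below it on the 3 WT arrays.

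Hoxc9 is a gene that in the mouse spinal cord sets the thoracic identity of motor neurons. Its signal was 277, 199 and 218 in 2KO basal epidermis, matrix and ORS, against 82.6 in WT basal epidermis, 17.1 in WT matrix and 18.7 in WT ORS. All 3 2KO arrays were above all 3 WT arrays, and the WT basal epidermis signal lay just under the floor. The bounds for Hoxc9, all higher in 2KO, were 3.33-fold, 2.39-fold and 2.62-fold in basal epidermis, matrix and ORS.

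Hoxc10, which acts at lumbar and hindlimb levels of the mouse axis, followed the same order of arrays. It had 320 signal units in 2KO basal epidermis, 181 in 2KO matrix and 223 in 2KO ORS, against 32.6, 14.9 and 24.1 in WT basal epidermis, WT matrix and WT ORS. The lowest 2KO signal was more than 2-fold above the floor and no WT signal reached the floor. The bounds for Hoxc10, again higher in 2KO, were 3.85-fold, 2.17-fold and 2.68-fold in the same order of populations. In matrix these bounds depended on the scaling of the arrays. Scaled to the hybridisation controls, the log2 bounds in matrix were 0.99 for Hoxc9 and 0.86 for Hoxc10, both under 2-fold.

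Hoxc9 and Hoxc10 were below the floor on all 3 WT arrays and more than 2-fold above it on all 3 2KO arrays. Of 6543 genes below the floor on every WT array, 41 (0.627%) had that pattern, and Hoxc9 and Hoxc10 were 2 of them. Another 5 were Hox genes of the other clusters, Hoxa11, Hoxb13, Hoxd9, Hoxd10 and Hoxd13. They came out of 14 HoxA, HoxB and HoxD genes that were below the floor on every WT array. For Hoxc9 the pattern rested on a signal of 82.6 in WT basal epidermis, just under the floor of 83.2. The pattern counted was the one that Hoxc9 and Hoxc10 themselves showed. The 6543 and the 14 also take in genes below the floor on every 2KO array, which could not have had it. Of all 18193 genes, 12651 reached the floor on at least 1 array. The 0.627% therefore does not show how common the pattern was among genes measured in 2KO.

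Hoxc4, the most anterior member and a gene needed for normal vertebrae and oesophagus in the mouse, differed between populations. A window of 300 bases at an annotated Hoxc4 start site is shown because Hoxc4 was the only member with an entry in the promoter table used, from RefSeq on GRCm38.p6. It covers chr15:103034145-103034444 on the plus strand, 250 bases before to 50 after the start, and lies inside the annotated span of the gene, so it serves an internal start. Capitals mark the CG dinucleotides, which read the same on both strands. Hoxc4 start-site window: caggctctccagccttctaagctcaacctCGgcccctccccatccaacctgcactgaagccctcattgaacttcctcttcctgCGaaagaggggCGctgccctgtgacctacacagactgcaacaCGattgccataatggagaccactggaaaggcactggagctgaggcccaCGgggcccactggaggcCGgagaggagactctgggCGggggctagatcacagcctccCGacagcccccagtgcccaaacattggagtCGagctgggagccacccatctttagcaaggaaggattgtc

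The window held 9 CG dinucleotides, and 45.8% of the 32851 windows of that length in the table held as many or more. Of its bases 60.3% were G or C.

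Hoxc4 had a signal of 154 in 2KO basal epidermis against 426 in WT basal epidermis, and 168 in 2KO ORS against 137 in WT ORS. It was 2.77-fold lower in 2KO basal epidermis and lay within 2-fold in ORS, at 1.23-fold higher in 2KO. In matrix both signals were under the floor, at 81.7 in 2KO and 13.6 in WT, so the pair gives no ratio. The WT basal epidermis array was the high one, and the 2KO basal epidermis signal was close to the signals of both ORS arrays.

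Hoxc5, the neighbour of Hoxc4 and a gene of the cervical and upper thoracic region, was lower in 2KO in both populations where it was measured. Its brightest probe set read 186 in 2KO basal epidermis against 378 in WT basal epidermis, and 85.2 in 2KO ORS against 303 in WT ORS. These are 2.03-fold and 3.55-fold lower signals, the first of them close to the 2-fold line. In matrix the signals were 72.4 in 2KO and 66.0 in WT, both below the floor. Of 11204 genes measured in basal epidermis and in ORS, 179 (1.6%) were at least 2-fold lower in 2KO in both. The other 2 Hoxc5 probe sets were below the floor on all 6 arrays, with highest signals of 73.2 and 67.5 in WT basal epidermis, and give no ratio.

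Hoxc6, which patterns the thoracic and forelimb region, stayed close to the floor everywhere. Its brightest probe set, of a type that can match several transcripts, had signals between 98.1 and 164 on the 6 arrays. The ratio of 2KO over WT was within 2-fold in each population, with log2 values of -0.31, 0.26 and -0.40 for basal epidermis, matrix and ORS. The other 2 probe sets gave log2 ratios between -0.03 and 0.09 wherever they were measured, so the sign of the small Hoxc6 ratios depended on the probe set. These data give no direction for Hoxc6.

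Hoxc8, the thoracic gene of the cluster, was well above the floor on every array. It read 667, 502 and 961 signal units in 2KO basal epidermis, matrix and ORS, against 1136, 573 and 1839 in the same WT populations. The 2KO signal was below the WT signal in each pair, by 1.70-fold, 1.14-fold and 1.91-fold in the same order, and no pair reached 2-fold. The log2 ratio in ORS, -0.94, was -1.19 with arrays scaled to a common median.

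Hoxc13 had its highest signals in matrix, where hair shaft cells arise. It read 3286 in 2KO matrix and 5489 in WT matrix, 442 in 2KO ORS and 726 in WT ORS, and 225 in 2KO basal epidermis and 189 in WT basal epidermis. The ratios of 2KO over WT were within 2-fold in all 3 populations, at 1.67-fold lower in matrix, 1.64-fold lower in ORS and 1.19-fold higher in basal epidermis. In matrix the log2 ratio of -0.74 was -1.02 with a common median and -1.43 with scaling to the hybridisation controls, both past 2-fold.

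**Figure D2:**
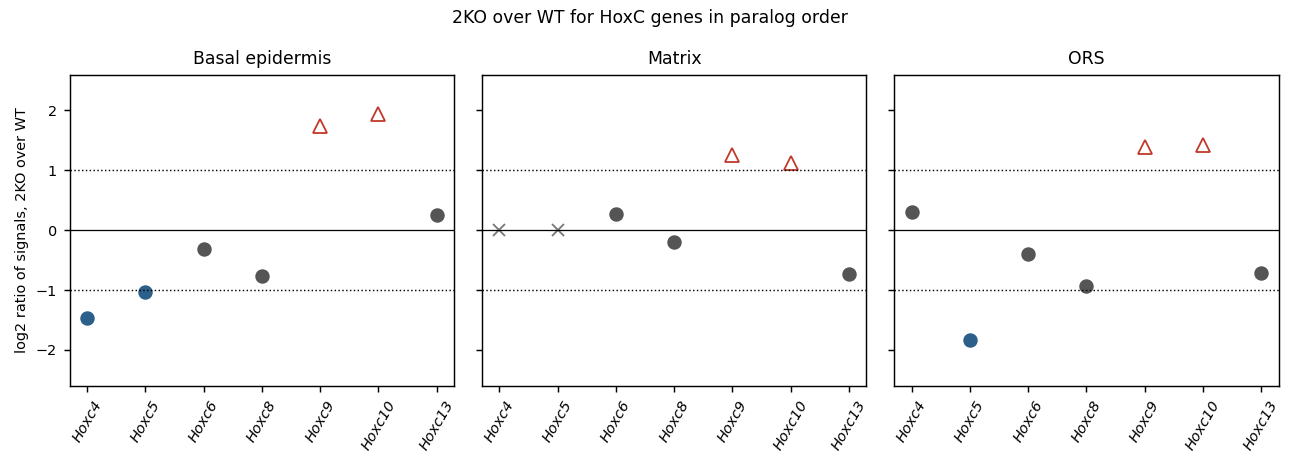
Log2 ratio of signals, 2KO over WT, for the HoxC genes in paralog order, 1 panel per cell population, with dotted lines at 2-fold. Filled points have both signals above the floor, open triangles are bounds with the WT signal at the floor, and crosses are pairs not measured. Red marks at least 2-fold higher, blue at least 2-fold lower and grey within 2-fold. Hoxc9 and Hoxc10 are higher in all 3 panels and no member is lower in matrix.

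Counted over the members, 2 were higher (Hoxc9 and Hoxc10) and 2 lower (Hoxc4 and Hoxc5) of 7 measured in basal epidermis, where 6.59% of all measured genes were higher and 4.09% lower. In matrix 2 of 5 measured members were higher (again Hoxc9 and Hoxc10) and 0 were lower, against 9.03% and 1.62% of measured genes. In ORS 2 of 7 were higher (Hoxc9 and Hoxc10) and 1, Hoxc5, was lower, against 8.16% and 4.75% of measured genes. The higher members were below the floor in WT, so in each pair they were measured only because their 2KO signal was higher, and the count of higher members among those measured cannot be read as support. The measured members had median log2 ratios of -0.31, 0.26 and -0.40 for basal epidermis, matrix and ORS, against 0.04, 0.03 and 0.01 over all measured genes. All 3 medians sat on Hoxc6 and took the other sign under at least 1 setting: 0.08 in basal epidermis and 0.09 in ORS without probe sets that can match several transcripts, and -0.26 in matrix with scaling to the hybridisation controls.

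Genotype was also tested over the 3 populations together, with limma on floored log2 signals and a term for population, so that each population gives 1 pair of arrays and the spread of the difference between populations is the error. Of 12651 genes at or above the floor on at least 1 array, 0 (0%) passed a Benjamini-Hochberg adjusted p of 0.05, while 1896 had an unadjusted p under 0.05. Hoxc9 was 1.46 ± 0.16 (SE) higher in 2KO on the log2 scale of floored signals, higher in 3 of 3 pairs, with limma's adjusted p = 0.0961. Over the alternatives that kept it, limma's adjusted p ran from 0.0907 to 0.194, and with 1 population left out it reached 0.750. Hoxc10 was 1.49 ± 0.21 (SE) higher on that scale, in 3 of 3 pairs, with limma's adjusted p = 0.123. Its range was 0.0466 to 0.212 over the same alternatives, and limma's adjusted p again reached 0.750 with 1 population left out. Both miss the threshold with the floor of 83.2, and Hoxc10 passed it with the floor at the 25th percentile. That lower floor passed 57 of 16833 genes, all of them higher in 2KO, against 0 of 12651 with the floor of 83.2. For the other 5 members limma's adjusted p lay between 0.294 (Hoxc8, -0.63 on the log2 scale, lower in 3 of 3 pairs) and 0.733 (Hoxc6). With the floor of 83.2, Hoxc9 and Hoxc10 entered the fit through their 2KO signals alone. Every WT value was raised to the floor, so no pair could come out lower in 2KO. Their 3 of 3 pairs and limma's adjusted p therefore cannot be read as support. Signals raised to the floor are equal to each other, so the WT arrays added no spread. The spread for Hoxc9 and Hoxc10 thus depends on the floor. With the floor at the 25th percentile the SE was larger for Hoxc9, at 0.39, and smaller for Hoxc10, at 0.17. Nothing says that the samples came from separate animals.

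Markers of other cells moved with genotype in some pairs. Fibroblast markers, 9 genes on the array, summed to 37024 in 2KO matrix against 20140 in WT matrix and to 23426 in 2KO ORS against 16947 in WT ORS, and to 13651 in 2KO basal epidermis against 16715 in WT basal epidermis. Of the measured fibroblast markers, 6 of 8 were at least 2-fold higher in 2KO matrix, 1 of 8 in 2KO ORS and 1 of 7 in 2KO basal epidermis, and 0 were lower. The 1 in both ORS and basal epidermis was Dcn. Twist2 and Pdgfra were each below the floor on 5 of the 6 arrays. Skeletal muscle markers, 7 genes, summed to 2994 in 2KO matrix against 614 in WT matrix, with 6 and 3 of the 7 above the floor, and to between 438 and 699 on the basal epidermis and ORS arrays. Ckm was below the floor on all 6 arrays. Dermal papilla markers, 8 genes, summed to 2524 in 2KO against 679 in WT for basal epidermis, to 5204 against 1622 for matrix and to 6921 against 765 for ORS, with Wif1 the largest term on every 2KO array and Sox18 below the floor on all 6. Merkel cell markers, 5 genes, summed to 2790 in 2KO against 368 in WT for basal epidermis, to 1421 against 237 for matrix and to 3981 against 834 for ORS, with 3 genes at least 2-fold higher in 2KO in each and Atoh1 below the floor on all 6 arrays. Immune markers, 7 genes, summed to 4424 in 2KO matrix against 913 in WT matrix, to 4705 in 2KO ORS against 2810 in WT ORS and to 5210 in 2KO basal epidermis against 5610 in WT basal epidermis, with Cd3e below the floor on all 6. H2-Eb1 was the largest term in 2KO ORS and 2KO basal epidermis, at 3517 and 3627, against 1148 and 2232 in WT. Of the measured immune markers, 4 of 6 were higher and 0 lower in 2KO matrix. In 2KO ORS 1 of 5 was higher and 1 lower, with a median log2 ratio of -0.44. In 2KO basal epidermis 0 of 6 were higher and 3 lower, with a median of -1.02. The part of such cells in the HoxC signals of any population was not tested, and in bulk RNA fewer cells of a type and less RNA per cell cannot be told apart.

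Between cell populations, Hoxc13 separated matrix from the others in both genotypes. In 2KO it was 7.43-fold higher in matrix than in ORS, and in WT 7.56-fold. In basal epidermis it was 14.6-fold lower than in matrix in 2KO and 29.1-fold lower in WT. Ranked among all measured genes, it held place 43 of 12104 from the top for 2KO matrix over 2KO ORS and place 60 of 11433 for WT matrix over WT ORS. Of 11053 genes measured in both WT comparisons with matrix, 752 (6.8%) were at least 2-fold higher in WT matrix than in WT ORS and in WT basal epidermis, and 174 of these 752 (23.1%), Hoxc13 among them, were at least 2-fold higher in 2KO matrix than in both other 2KO populations. Hoxc13 was also graded between the other populations, at 1.96-fold lower in 2KO basal epidermis than in 2KO ORS and 3.84-fold lower in WT basal epidermis than in WT ORS.

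Hoxc4, Hoxc5 and Hoxc8 had their lowest WT signals in matrix, and Hoxc6 differed little, with 137 in WT matrix, 124 in WT basal epidermis and 129 in WT ORS. Hoxc5 was at least 3.64-fold lower in WT matrix than in WT ORS and at least 4.54-fold higher in WT basal epidermis than in WT matrix. Of all genes measured in both WT comparisons, 9.7% were at least 2-fold lower in matrix in each. Hoxc8 was 3.21-fold lower in WT matrix than in WT ORS, and 1.98-fold higher in WT basal epidermis than in WT matrix. Hoxc4 in WT basal epidermis was at least 5.12-fold above WT matrix and 3.12-fold above WT ORS, which makes basal epidermis its highest WT population. Hoxc8 was instead highest in WT ORS, with 1136 in WT basal epidermis against 1839 in WT ORS, a difference of less than 2-fold.

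The same members were compared between the 2KO populations. Hoxc8 was 1.91-fold lower in 2KO matrix than in 2KO ORS. Hoxc4 was 1.09-fold lower in 2KO basal epidermis than in 2KO ORS and at least 2.02-fold lower in 2KO matrix than in 2KO ORS, where the WT bound for matrix over ORS was at least 1.64-fold lower. Hoxc5 was just above the floor in 2KO ORS and below it in 2KO matrix, so that pair says little of its size. It was 2.18-fold higher in 2KO basal epidermis than in 2KO ORS. Hoxc9 and Hoxc10, measured in all 3 2KO populations and in no WT population, each lay within 2-fold across the 2KO populations: Hoxc10 was 1.44-fold higher in 2KO basal epidermis than in 2KO ORS and 1.77-fold higher than in 2KO matrix. Whether any of these population differences differed between genotypes was not tested.

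**Figure D3:**
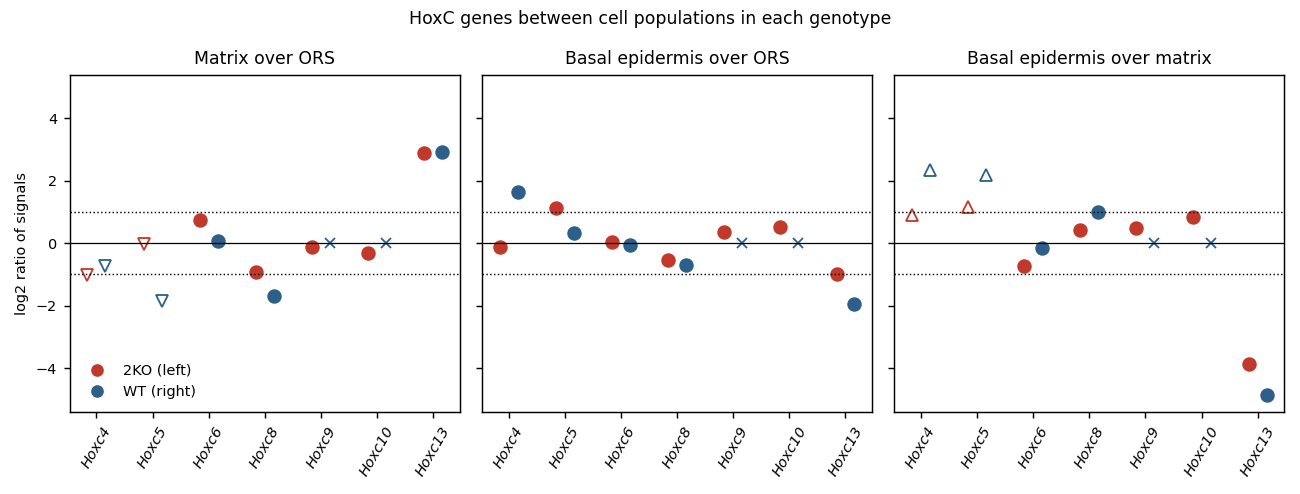
Log2 ratio of signals between cell populations for each HoxC gene, 2KO in red on the left and WT in blue on the right, with dotted lines at 2-fold. Filled points have both signals above the floor, open triangles are bounds, and crosses are pairs not measured. Hoxc13 is 7.43-fold higher in matrix than in ORS in 2KO and 7.56-fold in WT, and Hoxc4 and Hoxc5 are at least 5.12-fold and at least 4.54-fold higher in WT basal epidermis than in WT matrix.

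As counts, WT matrix over WT ORS had 1 member higher (Hoxc13) and 2 lower (Hoxc5 and Hoxc8) of 5 measured, beside 8.6% and 13.9% of all measured genes. WT basal epidermis over WT ORS had 1 higher (Hoxc4) and 1 lower (Hoxc13) of 5, beside 4.15% and 5.88%. WT basal epidermis over WT matrix had 2 higher (Hoxc4 and Hoxc5) and 1 lower (Hoxc13) of 5, beside 13.8% and 11.3%. In 2KO, matrix over ORS had 1 higher (Hoxc13) and 1 lower (Hoxc4) of 7, beside 5.2% and 8.61%. Basal epidermis over ORS had 1 higher (Hoxc5) and 0 lower of 7, beside 4.32% and 6.73%. Basal epidermis over matrix had 1 higher (Hoxc5) and 1 lower (Hoxc13) of 7, beside 7.29% and 6.9%. Comparisons within a genotype share arrays, so their counts are not independent.

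Set beside their paralogs in the other clusters, the HoxC genes had ratios like some and unlike others, with a single array per group behind each value. In group 9, Hoxa9 was 3.53-fold, 5.65-fold and 1.78-fold higher in 2KO basal epidermis, matrix and ORS, and Hoxd9 at least 6.46-fold, 3.49-fold and 6.38-fold higher. Hoxb9 was at least 2.29-fold higher in 2KO basal epidermis and, with both signals above the floor, 1.25-fold higher in matrix and 1.57-fold higher in ORS. Hoxa9 was above the floor on all 3 WT arrays, at 275, 220 and 476, whereas Hoxc9 and Hoxd9 were below it on all of them. In group 10, Hoxa10 was at least 1.58-fold, 3.23-fold and 2.71-fold higher in 2KO in the same order, and Hoxd10 at least 2.58-fold, 10.4-fold and 7.998-fold.

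In group 13, Hoxc13 was the 1 gene of 4 with a WT signal above the floor. Hoxb13 was at least 6.11-fold, 3.17-fold and 4.21-fold higher in 2KO basal epidermis, matrix and ORS, and Hoxd13 at least 3.20-fold, 9.30-fold and 9.60-fold, while Hoxc13 was within 2-fold in each. Hoxa13 was below the floor on all 6 arrays. Of the HoxA, HoxB and HoxD genes of groups 1 to 8, 5 were lower and 1 higher in 2KO of 10 measured in basal epidermis, 5 and 0 of 9 in matrix, and 6 and 1 of 10 in ORS. Over all measured genes, 4.09% were lower and 6.59% higher in basal epidermis, 1.62% and 9.03% in matrix, and 4.75% and 8.16% in ORS. Among these genes of groups 1 to 8, Hoxb4 was 1.82-fold, 2.19-fold and 1.83-fold lower in 2KO, within 2-fold or little beyond it. In ORS it so differed in sign from Hoxc4. Hoxa5 was 4.27-fold, 1.45-fold and 3.37-fold lower, with the smallest of the 3 in matrix. In group 8 the measured pair went opposite ways in basal epidermis and ORS, though Hoxc8 stayed within 2-fold. Hoxd8 was 8.90-fold higher in 2KO basal epidermis and 3.95-fold higher in 2KO ORS, where Hoxc8 was 1.70-fold and 1.91-fold lower. In matrix both were within 2-fold, with log2 ratios of 0.10 for Hoxd8 and -0.19 for Hoxc8. The differences between paralogs were not tested.

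**Figure D4:**
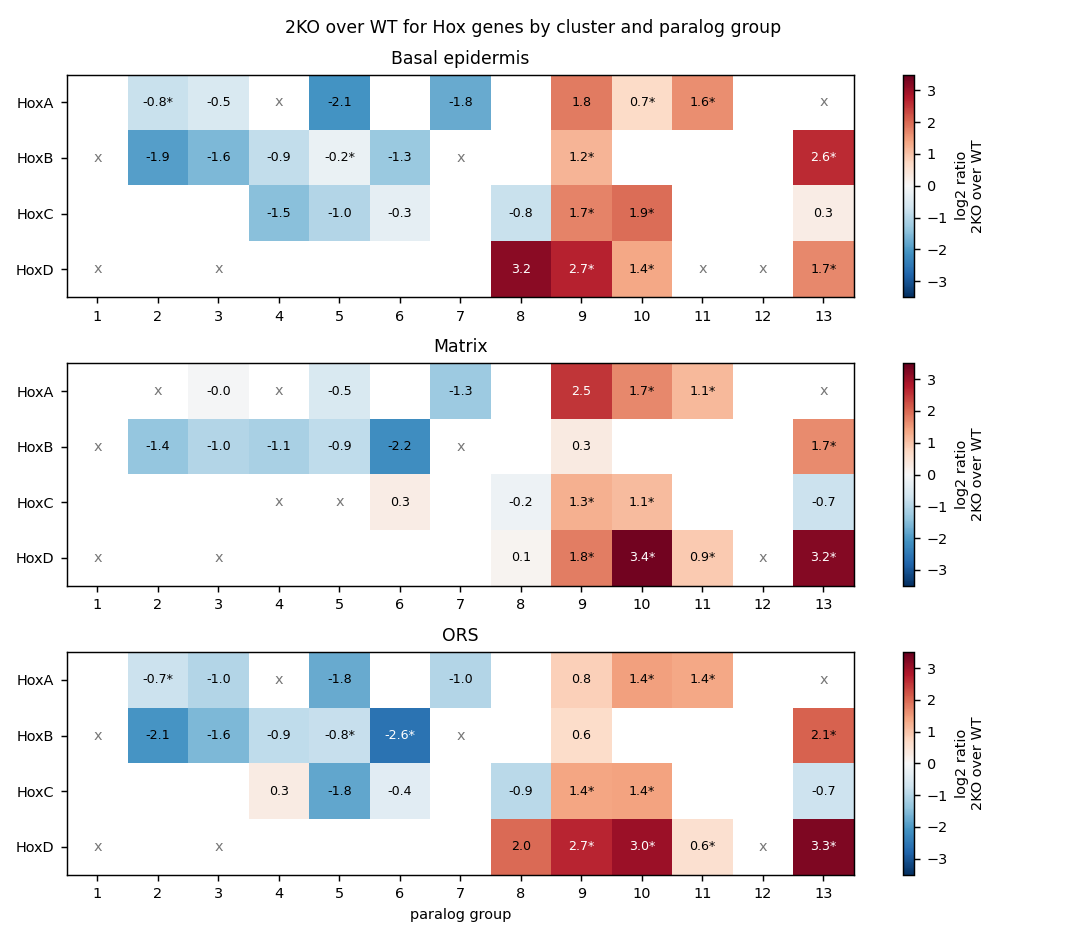
Log2 ratio of signals, 2KO over WT, for every Hox gene on the array, by cluster (rows) and paralog group (columns), 1 panel per cell population. An asterisk marks a bound with 1 signal at the floor, an x a gene with both signals below it, and blank cells have no gene analysed here. Groups 9 and 10 of HoxC are red in all 3 panels, while Hoxc13 stays between -0.74 and 0.25.

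Genes on both sides of the cluster were set beside the members. Of 8 flanking genes, 7 were measured in each pair, among them Calcoco1, next to Hoxc13, and Smug1, next to Hoxc4. In each population 0 of 7 were higher or lower in 2KO. Over all measured genes, 6.59% were higher and 4.09% lower in basal epidermis, 9.03% and 1.62% in matrix, and 8.16% and 4.75% in ORS. With so few flanking genes, a count of 0 is near these shares and does not set the list apart. The median log2 ratios of the flanking genes were -0.21, -0.01 and -0.12 in basal epidermis, matrix and ORS. Calcoco1 had 152 signal units in 2KO basal epidermis against 261 in WT, a log2 ratio of -0.78, the largest difference of the list in that pair. With scaling to the hybridisation controls 2 of the 7 were lower in 2KO matrix.

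Hox proteins bind DNA together with cofactors of the TALE class, the Pbx, Meis and Pknox proteins. Of the 8 cofactor genes on the array, 0 of 6 measured were higher or lower in 2KO basal epidermis, 1 of 5 was higher in matrix and 2 of 7 were higher in ORS. Over all measured genes, 6.59% were higher and 4.09% lower in basal epidermis, 9.03% higher in matrix and 8.16% higher in ORS. With so few cofactors, these counts give no direction for the list. Meis1 read 322 in 2KO matrix against 149 in WT matrix, and 640 in 2KO ORS against 319 in WT ORS, which is 2.15-fold and 2.01-fold higher. Meis2 was 4.40-fold higher in 2KO ORS, with 664 against 151. With a common median Meis2 was the 1 cofactor still past 2-fold in ORS and 0 were in matrix.

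Hair genes tied to Hoxc13, as targets in mouse or human hair or as regulators in the same cells, were taken as a list of 21, with 19 on the array. In matrix 6 of 18 measured were lower in 2KO and 1 was higher, with a median log2 ratio of -0.46. Over all measured genes, 1.62% were lower and 9.03% higher there. With scaling to the hybridisation controls 9 of 17 hair genes were lower and 0 higher, and 2559 of all 11765 measured genes were lower. Padi3, which deiminates hair proteins, was 3.23-fold lower in 2KO matrix (1282 against 4144), and the homeobox gene Msx2, active in the hair bulb, 2.78-fold lower (2307 against 6424). Krt35, an early hair shaft keratin, was within 2-fold there at 18316 against 19670, and Foxn1, a hair shaft regulator, was also within 2-fold at 637 against 671. In ORS 5 of 13 measured were lower and 2 higher, and in basal epidermis 5 of 15 were lower and 3 higher. Over all measured genes, 4.75% were lower and 8.16% higher in ORS, and 4.09% and 6.59% in basal epidermis. Krt35 was 7.11-fold lower in 2KO ORS (90.8 against 645) and at least 10.7-fold lower in 2KO basal epidermis (36.5 against 892), while Lef1, which binds WNT target genes, was 5.06-fold and 3.14-fold higher in the same pair of populations. The summed matrix, sheath and shaft signal given above was lower in 2KO in each population too, and its part in these counts was not tested.

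Likeness of pattern was taken as Pearson's r of log2 signals, raised to the floor, over the 6 arrays, among 1917 genes that are not members and span at least 4-fold. Closest to Hoxc10 were Pitx1 (r = 0.999), Hoxb13 (r = 0.998) and Dglucy (r = 0.997), and closest to Hoxc9 were Hoxb13 (r = 0.997), Pitx1 (r = 0.997) and Dmrta2 (r = 0.996). For both, 3 of the 6 points are the floor itself, so r rests on the 3 2KO arrays and the step to the floor. Between themselves Hoxc9 and Hoxc10 had r = 0.993. Closest to Hoxc13 were Nfe2l3 (0.993), Lap3 (0.982) and Repin1 (0.981) by the same r. Closest to Hoxc8 were Fkbp5 (0.997), Aldh6a1 (0.985) and Lama4 (0.985). Closest to Hoxc5 were Rasgrp1 (0.9998), Clca3a2 (0.994) and Vegfd (0.993), and closest to Hoxc4 were Satb1 (0.983), Hlf (0.980) and Uap1 (0.971). Closest to Hoxc6, whose signals span 1.68-fold in all, were Fbp1 (0.971), Krt73 (0.956) and Muc15 (0.946). These are the highest of many correlations over 6 arrays that share their genotype and cell populations, and they are given as a description only.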

How the data were processed

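RNA from 6 sorted mouse skin samples was measured on 1 Affymetrix array each. The authors deposited an intensity for each probe set, not log-transformed. MAS5 is the tool listed per the submitters' processing notes, without a version. Every array's deposited values have the same 2% trimmed mean, 500.0, so the arrays had been scaled to one level, and a shift of most genes one way cannot be seen. They were used without further scaling.

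Of 45101 probe sets, 34945 name 1 gene in the platform annotation; control probe sets and those naming several genes were left out. Gene names and order came from the RefSeq table of GRCm38.p6, and the build behind the probe annotation is not given in the sources used here. A gene was represented by its brightest probe set by mean log2 signal (Python 3.11.15, pandas 2.3.3, numpy 2.4.6). Log2 ratios were taken from signals raised to a floor of 83.2. With 1 array per group, comparisons within a population had no test, and the number of arrays limits the precision. Genotype over the 3 populations was tested with limma 3.58.1 in R 4.3.3 (population plus genotype, empirical Bayes, Benjamini-Hochberg adjustment over all genes), a fit added after the data were seen. The calling and that fit were also run on simulated data, and no result given here rests on that run. The alternatives were 3 scalings, floors at the 25th and 75th percentiles, and 2 ways of choosing probe sets. The fit was also run with each population left out in turn.

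All 7 members were named in every comparison. Other lists gave counts, medians and up to 4 genes past 2-fold per comparison, and likeness gave 3 genes per member. Paralogs of members, and the flanking and hair genes described as within 2-fold, were named after their values were seen. The members and lists were chosen with earlier results of these data known.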

Additional observations from a re-analysis of the deposited data

Results flagged for a closer look

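Hoxc4 went opposite ways in 2 populations, with 154 in 2KO against 426 in WT basal epidermis and 168 in 2KO against 137 in WT ORS. Its log2 ratio, 2KO over WT, stood at -1.47 in basal epidermis and at 0.30 in ORS, a difference of -1.77 (basal epidermis minus ORS). With 1 array per group the difference was not tested, and the ORS ratio is within 2-fold.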

How the results depend on the processing

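The labels give no replicate numbers, so arrays were paired only by population, in the fit of genotype over the 3 populations, which was added after the data were seen. In that fit 0 members passed, and 1 passed, Hoxc10 (3.20 on the log2 scale), with the floor at the 25th percentile. Over all genes, 57 of 16833 passed with that floor, all of them higher in 2KO. Of the members that did not pass, Hoxc4 changed sign, to 0.26 with that floor and 0.15 without basal epidermis, and Hoxc6, to 0.059 with the mean over probe sets and 0.064 without probe sets that can match several transcripts. In the comparisons of single arrays, no member ratio past 2-fold changed sign under the 7 alternatives, where they gave a value. In basal epidermis the 2 higher members of 7 stayed 2 under every alternative except the floor at the 75th percentile, which gave 0; the number lower, 2, was 1 with quantile normalization, 1 with the mean over probe sets and 0 with that floor. In matrix the number higher, 2, was 1 with a common median, 0 with scaling to the hybridisation controls, 0 with the 75th percentile floor and 3 with the 25th, and the number lower, 0, was 1 with each of these scalings. In ORS the number higher, 2, was 0 with the 75th percentile floor, and the number lower, 1, was 2 with a common median and with hybridisation controls, and 0 with that floor and with the mean over probe sets. The high floor leaves few members measured, and the mean over probe sets takes in the dim Hoxc5 probe sets.

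For WT matrix over WT ORS the number lower, 2, was 1 with the 75th percentile floor, 1 with the mean over probe sets and 3 with the 25th percentile floor. For WT basal epidermis over WT ORS the number higher, 1, was 2 with the 25th percentile floor and 0 with the 75th, which also gave 0 lower. For WT basal epidermis over WT matrix the number higher, 2, was 0 with the 75th percentile floor, 1 with the mean over probe sets, and 3 with a common median, quantile normalization or the 25th percentile floor. For 2KO matrix over 2KO ORS the number lower, 1, was 0 with a common median, with quantile normalization and with the 75th percentile floor. For 2KO basal epidermis the number higher, 1, was 0 against ORS and 0 against matrix with the 75th percentile floor and with the mean over probe sets, and 2 against matrix with a common median and with quantile normalization. Beyond the high floor and the mean over probe sets, the cause was not tested. Of all genes past 2-fold between genotypes, those higher in 2KO made up 61.7%, 84.8% and 63.2% for basal epidermis, matrix and ORS, 52.2%, 55.3% and 39.1% with a common median, and 55.9%, 14.4% and 44.5% with hybridisation controls, which moved the median log2 ratio in matrix to -0.64. Signals near the floor limit Hoxc4, Hoxc5, Hoxc6, Hoxc9 and Hoxc10.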
